A study of Mus musculus with 57 samples.

Results

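The data described here are the bulk RNA-seq profiles of hearts taken 60 days after the start of a chronic regimen of doxorubicin (Doxo) or its vehicle (Ctrl). The hearts were chosen by their labels alone, as the 6 Doxo and the 5 Ctrl hearts of the chronic experiment, and they make up 11 of the 57 hearts in the series. All 11 came from male C57BL/6J mice whose first injection was given between 14 and 16 weeks of age. Doxo mice received 5 intraperitoneal injections of 4 mg/kg over 2 weeks, a cumulative dose of 20 mg/kg, and Ctrl mice were injected with PBS alone. Neither group was given nicotinamide mononucleotide (NMN), and both drank regular water. The 6 Doxo-NMN hearts of the same experiment came from mice on the same doxorubicin schedule with NMN at 500 mg/kg per day. They entered the comparison of Doxo with Ctrl through the low-count filter, the scaling and the shared estimate of the spread. Their own levels are set beside Ctrl hearts only for the satellite models described below. Each library is 1 frozen heart sample from 1 mouse, so only mice alive at day 60 are represented, and in whole tissue fewer cells of a type and less RNA per cell cannot be told apart.

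Doxorubicin is an anthracycline that intercalates into DNA and traps type II topoisomerases on it, which leaves double-strand breaks. Its cardiac toxicity is known as a late cardiomyopathy, in which the ventricle can re-express fetal and stress genes such as *Nppa*, *Nppb* and *Myh7* and lay down matrix in response to transforming growth factor β. Satellite DNA, made of long tandem arrays at and around centromeres, is normally packed into heterochromatin and gives little polyadenylated RNA.

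The 11 libraries held between 17769886 and 23629270 reads counted to genes, so that 3 reads, the upper limit that a count of 0 allows, corresponded to 0.127 to 0.169 counts per 1000000 counted reads (CPM, after TMM scaling of the library sizes). Cardiomyocyte markers were abundant in both groups, with a summed level of 67601 to 81995 CPM over 10 markers in Ctrl hearts and 72859 to 88287 CPM in Doxo hearts. Doxo replicate 2 stood apart from the rest. It held 202 genes at least 2-fold above, and 441 genes at least 2-fold below, every one of the other 10 hearts. Ctrl replicate 1 came next, with 77 genes above and 59 below, against at most 3 above and 20 below for any other heart. Called genes and gene lists are given with and without such hearts where this moved them, and the part played by either heart was not tested beyond that.

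Of 14960 genes tested, 9 passed an adjusted p of 0.05 (edgeR quasi-likelihood test, Benjamini-Hochberg), which is 0.0602% of the genes. Of these, 8 were higher in Doxo hearts (0.0535%) and 1 was lower (0.00668%). A group of 5 among the 9 were predicted gene models that share satellite-like repeat sequence, namely *Gm10800*, *Gm10722*, *Gm10801*, *Gm26870* and *Gm21738*. The other 4 were the named protein-coding genes *Tgfb2*, *Slc30a3* and *Sprr1a*, which were higher, and *Capn3*, which was lower. Without Doxo replicate 2, 11 of 14908 genes passed (0.0738%), 10 of them higher (0.0671%) and 1 lower (0.00671%), and they included all 9 together with *Ctgf* and *Tmem100*. At an unadjusted p of 0.05, 1181 genes passed (7.89%), 650 of them higher (4.34%) and 531 lower (3.55%), and when Doxo replicate 2 was left out the number was 761 (5.1%), 417 higher (2.8%) and 344 lower (2.31%). Of 13253 protein-coding genes tested, 1025 (7.73%) had an unadjusted p under 0.05 with all hearts. In 89 genes (0.595%) every Doxo heart lay above every Ctrl heart, and in 48 (0.321%) every Doxo heart lay below.

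These models have sequence in common, and the longest such stretch is shown here. They are called satellite models from their shared words and internal repeats alone, since no repeat annotation was used. How reads that cover this stretch were assigned to the models was not tested. Among the transcripts of 55450 annotated genes (GENCODE vM21, GRCm38), only 13 genes, these 5 included, shared a 24-base word with any of the 5. The longest run common to all 5 transcripts was 42 bases long, and there were 2 such runs whose letters overlap. Capitals mark the common run, which is the one of the pair that begins with TCAAGTGG in *Gm10800* and the one that begins with ATGTTTCT in the other 4, and lower case the bases next to it within the same exon, read 5′ to 3′ on the transcript strand except for *Gm26870*, which is shown as the reverse complement of its transcript.
Gm10800, chr2:98666547-98666629, minus strand: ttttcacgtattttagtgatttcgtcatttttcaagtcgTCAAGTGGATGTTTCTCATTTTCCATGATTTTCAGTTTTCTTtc
Gm10722, chr9:3001087-3001206, plus strand: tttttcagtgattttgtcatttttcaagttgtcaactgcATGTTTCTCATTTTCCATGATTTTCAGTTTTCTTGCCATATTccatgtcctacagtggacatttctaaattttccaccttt
Gm10801, chr2:98662266-98662385, plus strand: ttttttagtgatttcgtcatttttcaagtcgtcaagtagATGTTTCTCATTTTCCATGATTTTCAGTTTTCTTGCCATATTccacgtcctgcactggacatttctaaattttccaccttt
Gm26870, chr9:3000443-3000562, plus strand shown, gene on the minus strand: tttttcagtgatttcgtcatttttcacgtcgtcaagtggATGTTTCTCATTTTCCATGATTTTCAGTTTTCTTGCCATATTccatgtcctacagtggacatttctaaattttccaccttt
Gm21738, chr14:19417216-19417335, minus strand: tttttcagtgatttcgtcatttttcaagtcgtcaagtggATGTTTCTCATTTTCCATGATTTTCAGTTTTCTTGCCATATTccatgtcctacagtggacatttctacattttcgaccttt

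The 5 transcripts were between 504 and 1170 bases long and held 63.8% to 65.7% A and T. Among the shifts that all 5 lengths allow, *Gm26870* matched itself best at 234 bases, the length of the mouse major satellite unit. At that shift the transcript of *Gm26870* was identical at 81.5% of positions, that of *Gm10722* at 65.2%, that of *Gm21738* at 62.4%, that of *Gm10800* at 43% and that of *Gm10801* at 36.7%, where the median over all shifts was 30.4% to 31.5%. The annotation lists all but *Gm26870* as protein-coding, and no protein is described for them here. Over all shifts recorded for each transcript the best match was elsewhere, at 225 bases for *Gm10800*, 400 for *Gm10801*, 415 for *Gm10722* and *Gm21738* and 703 for *Gm26870*. *Gm10800* (ENSMUSG00000075014, chr2:98666547-98667301, minus strand) and *Gm10801* (ENSMUSG00000075015, chr2:98662237-98664083, plus strand) are neighbours on chromosome 2. *Gm26870* (ENSMUSG00000097312, chr9:3000282-3038313, minus strand) is annotated as a lincRNA and overlaps *Gm10722* (ENSMUSG00000091028, chr9:3000922-3002330, plus strand) on the other strand. Whether the libraries kept strand is not given in the sources used here, so reads from these overlapping models cannot be told apart. *Gm21738* (ENSMUSG00000095280) lies at chr14:19415857-19418930.

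*Gm10800* was the gene with the smallest p of all. Its level was 2.34, 0.774, 0.546, 1.17 and 0.396 CPM in the 5 Ctrl hearts, and in Doxo hearts it ranged from 20.6 to 30.7 CPM with a median of 23.7 CPM. The lowest Doxo heart thus lay far above the highest Ctrl heart. The mean was 1.04 ± 0.78 CPM in Ctrl (SD, n = 5) and 24.7 ± 3.91 CPM in Doxo (SD, n = 6), a log2 difference of 4.56 ± 0.33 (SE, edgeR adjusted p = 1.96e-07). In reads, the Doxo hearts held 3023 and the Ctrl hearts 99, a ratio of 24.3 after scaling to library size with an exact 95% interval from 19.9 to 30.0 that covers counting error only. Doxo replicate 2, at 25.2 CPM, sat among the other Doxo hearts for this gene, and without it the log2 difference was 4.56 (adjusted p = 4.27e-07).

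The other 4 models were present at a few reads in Ctrl hearts. *Gm10722* had 1, 0, 1, 0 and 1 reads in the Ctrl hearts and 18 to 27 reads in the Doxo hearts, or 0.0321 ± 0.0294 CPM (SD, n = 5) against 1.12 ± 0.162 CPM (SD, n = 6). Its log2 difference was 4.91 ± 0.49 (SE, edgeR adjusted p = 2.25e-06), and the ratio of its summed reads, scaled in the same way, was 36.1, with a counting interval from 12.1 to 177, since the 5 Ctrl hearts held 3 reads in all. *Gm10801* had 6, 2, 3, 0 and 3 reads in Ctrl hearts and 35 to 95 in Doxo hearts, a log2 difference of 4.14 ± 0.40 (SE, adjusted p = 4.59e-06). Every Doxo heart exceeded every Ctrl heart for both models. *Gm26870* had 1, 2, 1, 5 and 3 reads in Ctrl hearts and 31 to 79 in Doxo hearts, a log2 difference of 4.21 ± 0.43 (SE, adjusted p = 8.03e-06). *Gm21738* had 12, 6, 0, 5 and 0 reads in Ctrl hearts and 41 to 75 in Doxo hearts, a log2 difference of 3.46 ± 0.43 (SE, adjusted p = 3.09e-04). The groups did not overlap for these models either. Leaving out any of the 11 hearts left all 5 models past the threshold, with the largest adjusted p of 0.0023 for *Gm21738*. A rule that asked for at least 10 reads in every heart removed all 5 from the test, because Ctrl hearts held so few. The low-count filter of the main fit kept these models through the dosed hearts, since their Ctrl reads alone were too few for it.

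**Figure D1:**
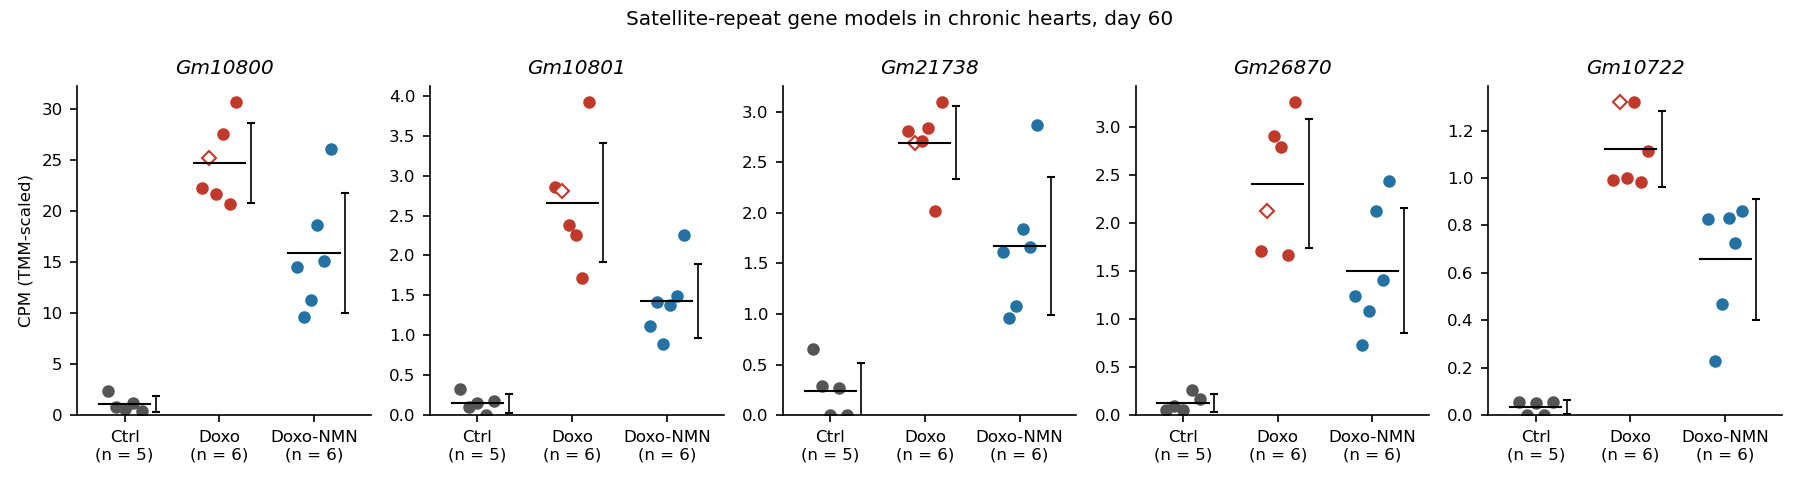
CPM of each of the 5 satellite gene models in every Ctrl, Doxo and Doxo-NMN heart, 1 point per heart, with lines at the group means, bars for 1 SD and a diamond for Doxo replicate 2. For Gm10800 the Ctrl hearts lie between 0.396 and 2.34 CPM and the Doxo hearts between 20.6 and 30.7 CPM, and no Doxo heart overlaps a Ctrl heart in any of the 5 models.

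Because the models share words, their reads were also summed. The 13 related models together reached 0.792 to 3.59 CPM in Ctrl hearts (median 1.31) and 27.9 to 43.7 CPM in Doxo hearts (median 33.5), a ratio of group means of 20.9. *Gm10800* alone carried 71.1% of these reads in the Doxo hearts. The 8 models that were too low to be tested had 0 to 3 reads in any Ctrl heart when added together and 15 to 39 in any Doxo heart. They were found by words shared with the called models. Neither this gap nor the summed ratio is therefore independent of the calls. As a measure of stray reads, 1735 olfactory and vomeronasal receptor genes, which belong to sensory neurons, were summed. Their level was 23.5 to 43.2 CPM in Ctrl hearts and 26.4 to 38.2 CPM in Doxo hearts, and the groups overlapped. This sum covers receptor genes and not repeats, so it cannot show stray reads from repeated sequence. The number of genes with any read was 20504 to 22142 in Ctrl hearts and 21624 to 22950 in Doxo hearts. Ctrl replicate 1, with 22142, had the highest satellite and receptor sums among Ctrl hearts. Among Doxo hearts, replicate 6, with 22950, had the highest satellite sum and replicate 5, with 22245, the lowest. Whether the reads on the satellite models came from RNA or from residual genomic DNA was not tested, since gene counts cannot tell these apart, and how reads that map to several places were counted is not given in the sources used here.

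The Doxo-NMN hearts gave their own comparison with the same Ctrl hearts, given here side by side and without a test of the one against the other. *Gm10800* stood at 15.9 ± 5.90 CPM in Doxo-NMN hearts (SD, n = 6), a log2 difference from Ctrl of 3.92 ± 0.33 (SE, edgeR adjusted p = 2.91e-06), where the Doxo hearts gave 4.56. For the other 4 models the log2 difference of Doxo-NMN from Ctrl was 4.15 for *Gm10722*, 3.23 for *Gm10801*, 3.51 for *Gm26870* and 2.76 for *Gm21738*. None of the 13 models is listed in the count table of the acute experiment, so their level after the acute regimen was not analysed here.

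*Tgfb2* encodes transforming growth factor β2, a secreted ligand that drives matrix synthesis and fibroblast activation (ENSMUSG00000039239, chr1:186622792-186705989, minus strand). Its level was 13.8, 9.97, 9.88, 9.35 and 10.4 CPM in the Ctrl hearts and 15.1 to 26.3 CPM in the Doxo hearts, with a median of 18.5 CPM. All 6 Doxo hearts lay above all 5 Ctrl hearts, and the nearest pair was Doxo replicate 2 and Ctrl replicate 1. Mean levels of 10.7 ± 1.79 (SD, n = 5) and 19.8 ± 4.13 CPM (SD, n = 6) gave a log2 difference of 0.89 ± 0.15 (SE, 1.86-fold, edgeR adjusted p = 0.0144), and 0.96 ± 0.14 without Doxo replicate 2 (adjusted p = 0.00275). The adjusted p reached 0.0815 when single hearts were left out, and the gene stayed past the threshold in 7 of 11 such fits, losing it without Ctrl replicate 2, 3, 4 or 5. It was also lost when only Ctrl and Doxo hearts were fitted.

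Other members of the same signalling system were looked up after the values of *Tgfb2* had been seen. The log2 difference was -0.23 for *Tgfb1* (edgeR adjusted p = 0.70) and -0.06 for *Tgfb3* (adjusted p = 0.947), the other ligands of the family. It was -0.02 for the receptor *Tgfbr1* and 0.08 for the receptor *Tgfbr2*. None of these passed the test. *Ctgf* (current symbol *Ccn2*, chr10:24595442-24598683) encodes connective tissue growth factor, a matrix protein induced by this pathway. It stood at 35.3, 41, 32, 31 and 43.5 CPM in Ctrl hearts, and in Doxo hearts at 76.0 CPM in the lowest, 88.2 CPM at the median and 516 CPM in the highest, which was Doxo replicate 2. No Doxo heart overlapped the Ctrl hearts. With all hearts the log2 difference was 2.20 ± 0.42 (SE) and missed the threshold (adjusted p = 0.0579), and without Doxo replicate 2 it was 1.43 ± 0.19 and passed (adjusted p = 7.57e-04), the smaller difference coming with a smaller error. *Ctgf* passed in 5 of the 11 fits that leave out 1 heart, each time without a Doxo heart.

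*Capn3* encodes calpain 3, a calcium-dependent protease of striated muscle, and was the only gene called lower (ENSMUSG00000079110, chr2:120456019-120504913, plus strand). Ctrl hearts held 6.69, 8.27, 7.30, 6.22 and 7.97 CPM, and Doxo hearts 3.29 to 4.96 CPM with a median of 4.11 CPM. The highest Doxo heart lay below the lowest Ctrl heart. The log2 difference was -0.80 ± 0.14 (SE, 1.75-fold lower, edgeR adjusted p = 0.0219), and -0.77 without Doxo replicate 2 (adjusted p = 0.0405). It stayed past the threshold in 6 of 11 fits with 1 heart left out, and was lost without Ctrl replicate 2, 3 or 5 or Doxo replicate 4 or 5. It was also lost when only Ctrl and Doxo hearts were fitted. The ubiquitous calpains *Capn1* and *Capn2* had log2 differences of -0.10 and -0.05. *Ganc*, which overlaps *Capn3* on the same strand, had one of -0.02. None of these 3, looked up afterwards, passed the test.

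*Slc30a3* encodes a zinc transporter best known from synaptic vesicles (ENSMUSG00000029151, chr5:31086106-31108237, minus strand). It was measured at 3 to 6 reads per Ctrl heart, or 0.326, 0.145, 0.199, 0.266 and 0.170 CPM, and at 11 to 19 reads per Doxo heart, or 0.605 to 1.09 CPM with a median of 0.870 CPM. The groups did not overlap. The log2 difference was 1.91 ± 0.32 (SE, 3.75-fold, edgeR adjusted p = 0.0193), and 1.84 ± 0.33 without Doxo replicate 2 (adjusted p = 0.039). *Slc30a3* passed in 7 of 11 fits with 1 heart left out and was lost without Ctrl replicate 2, 3, 4 or 5, where the adjusted p reached 0.125. The broadly expressed zinc exporter *Slc30a1*, looked up afterwards, had a log2 difference of -0.04.

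*Sprr1a* encodes a small proline-rich protein of the cornified envelope that is also known as a stress-induced gene in cardiomyocytes (ENSMUSG00000050359, chr3:92483952-92485895, minus strand). Ctrl hearts held 1 to 5 reads, or 0.218, 0.0484, 0.248, 0.106 and 0.113 CPM. Doxo hearts held 15 to 147 reads, or 0.735 CPM in the lowest, 1.71 CPM at the median and 6.08 CPM in the highest. All Doxo hearts were above all Ctrl hearts, and the spread within Doxo (2.43 ± 2.03 CPM, SD, n = 6) was nearly as wide as its mean. The log2 difference was 4.05 ± 0.72 (SE, 16.5-fold, edgeR adjusted p = 0.0248), and 4.21 ± 0.71 without Doxo replicate 2 (adjusted p = 0.0142). It passed in 5 of 11 fits with 1 heart left out. The adjusted p reached 0.183 among the other 6, which are those without any one of the 5 Ctrl hearts or without Doxo replicate 3. Like *Tgfb2* and *Capn3*, it was lost when only Ctrl and Doxo hearts were fitted.

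*Tmem100*, which encodes a membrane protein of the endothelium downstream of BMP9 and ALK1 (ENSMUSG00000069763, chr11:90030348-90036508, plus strand), passed only without Doxo replicate 2 among the 11 fits with 1 heart left out. Ctrl hearts stood at 7.89, 11, 10.4, 11.1 and 12 CPM and Doxo hearts at 14.2 to 19.3 CPM with a median of 16.6 CPM. The groups did not overlap in this gene. Its log2 difference was 0.68 ± 0.13 with all hearts (SE, edgeR adjusted p = 0.0687) and 0.72 ± 0.13 without Doxo replicate 2 (adjusted p = 0.039).

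**Figure D2:**
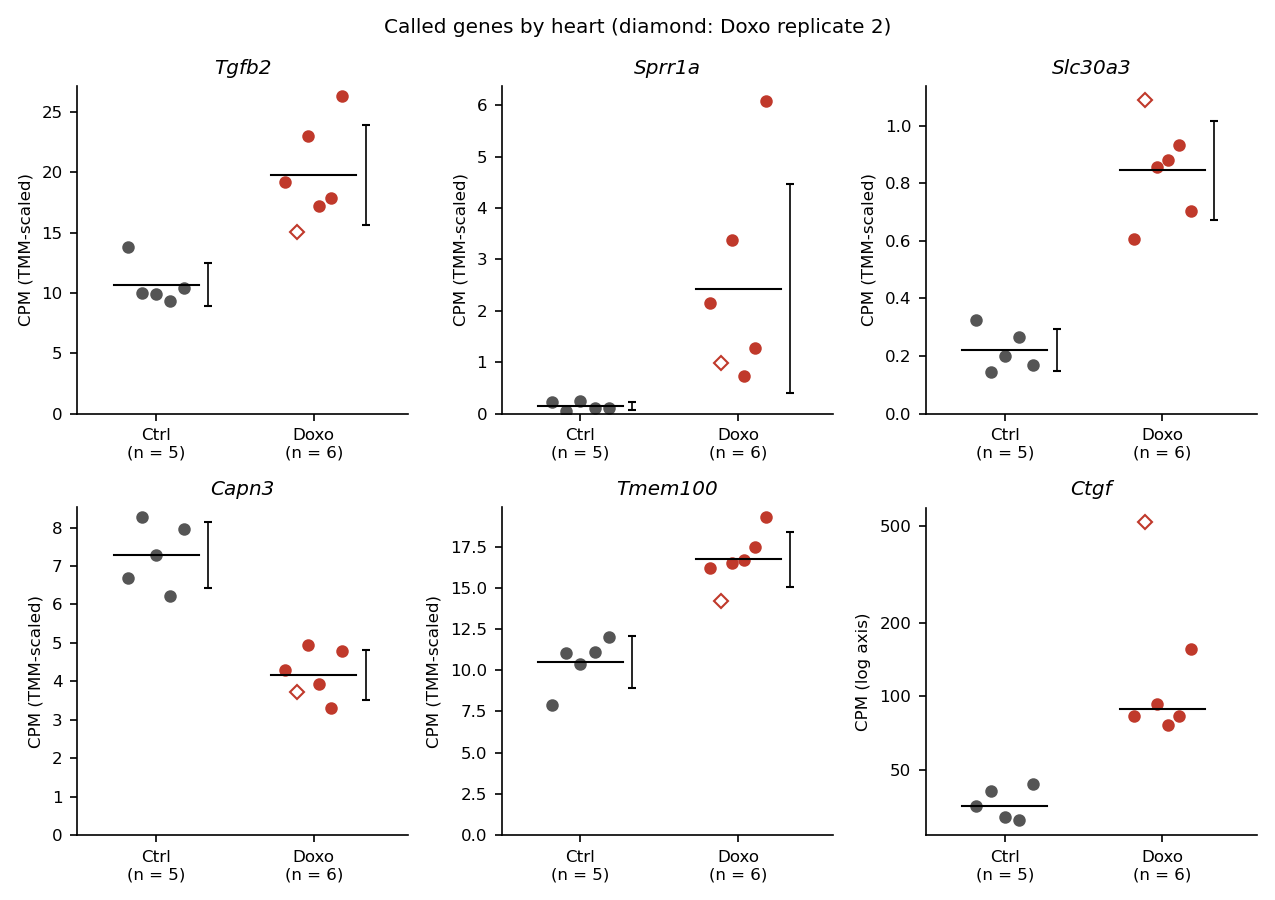
CPM of the named protein-coding genes called in the edgeR fit with all hearts (Tgfb2, Sprr1a, Slc30a3, Capn3). Tmem100 and Ctgf were called without Doxo replicate 2 but not in that fit. There is 1 point per heart, with a diamond for Doxo replicate 2, lines at the group means and bars for 1 SD (for Ctgf, on a log axis, lines at the medians). In each gene the groups are separate, as in Capn3, where Doxo hearts lie between 3.29 and 4.96 CPM and Ctrl hearts between 6.22 and 8.27 CPM, and in Ctgf Doxo replicate 2 stands at 516 CPM.

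Most genes differed by less than these. Over all tested genes the standard error of the log2 difference had a median of 0.15. A fold of at least 1.5 in either direction was reached by 728 genes and a fold of at least 2 by 144. Without Doxo replicate 2 these numbers were 487 and 92.

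Among the protein-coding genes that came next in order of p, the ones on the higher side did not pass. *Usp11*, a deubiquitinating enzyme, stood at 7.94, 7.16, 6.55, 7.17 and 7.75 CPM in Ctrl hearts and at 9.53 to 11.9 CPM in Doxo hearts (median 10.4). The groups were separate, with a log2 difference of 0.55 ± 0.11 (SE, edgeR adjusted p = 0.0796). *Nppa*, which encodes atrial natriuretic peptide, stood at 201, 86.7, 79.4, 66.2 and 81.4 CPM in Ctrl hearts and at 120 to 533 CPM in Doxo hearts (median 305). In 4 of 6 Doxo hearts it lay above all Ctrl hearts, and the highest Ctrl heart was replicate 1. The log2 difference of *Nppa* was 1.58 ± 0.35 (SE, adjusted p = 0.189), and it passed without Ctrl replicate 1 (adjusted p = 0.021) and without Doxo replicate 4. *Nppb*, the B-type natriuretic peptide, had a log2 difference of 0.55 (unadjusted p = 0.0336, adjusted p = 0.613).

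*Myh7* encodes β-myosin heavy chain, the slow isoform that the adult mouse ventricle largely replaces with the α isoform of *Myh6*. It stood at 597, 412, 345, 456 and 369 CPM in Ctrl hearts, at 651 to 1148 CPM in 5 Doxo hearts and at 23126 CPM in Doxo replicate 2. Every Doxo heart lay above every Ctrl heart. The log2 difference was 3.42 ± 0.83 with all hearts (SE, edgeR adjusted p = 0.286) and 1.14 ± 0.24 without Doxo replicate 2 (adjusted p = 0.157), so the value moved by more than 2 log2 units on 1 heart while the direction held. *Myh6* had a log2 difference of -0.08 ± 0.22 (SE) with all hearts and 0.02 ± 0.20 without that heart.

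On the lower side the leading genes below *Capn3* included the chaperones or cochaperones *Hsph1*, *Hspa1b* and *Chordc1* and several transporters. *Hsph1*, a large heat shock protein of the HSP110 family, stood at 68.1, 73.0, 58.5, 78.4 and 103 CPM in Ctrl hearts and at 20.8 to 49.8 CPM in Doxo hearts (median 43). The groups were separate, and the log2 difference was -0.96 ± 0.22 (SE, edgeR adjusted p = 0.225), and -0.83 without Doxo replicate 2. *Hspa1b*, an inducible HSP70 with a near-identical copy in *Hspa1a* whose reads the counting may split, stood at 5.76 to 29.3 CPM in Ctrl hearts and 2.16 to 6.44 CPM in Doxo hearts. The lowest Ctrl heart overlapped the highest Doxo heart, and the log2 difference was -1.79 ± 0.44 (SE, adjusted p = 0.322), the same without Doxo replicate 2. *Chordc1*, a cochaperone of HSP90, had a log2 difference of -0.52, and *Hsp90aa1*, the inducible HSP90, which was not among these leading genes but in the list of chaperones, one of -0.43.

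*Slc26a6*, an anion exchanger, *Camk2b*, a calcium/calmodulin-dependent kinase, *Abcg1*, a sterol exporter, *Fxyd2*, a regulator of the sodium pump, and *Pld4*, a phospholipase D family member of myeloid cells, each had all 6 Doxo hearts below all 5 Ctrl hearts. Their log2 differences were -0.50, -0.50, -0.62, -0.91 and -0.59 in that order, with edgeR adjusted p-values of 0.225, 0.286, 0.335, 0.286 and 0.164. *Abcg1* shows how narrow the Ctrl group could be, at 7.02, 7.11, 7.0, 6.59 and 7.41 CPM against 3.78 to 5.33 CPM in Doxo hearts. *Lrp2bp* had a log2 difference of -0.98 (adjusted p = 0.286), with 5 of 6 Doxo hearts below the Ctrl hearts. None of these genes passed in the edgeR fit with all hearts or without Doxo replicate 2.

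Some lower values came forward only once Doxo replicate 2 was left out. *Fah*, the last enzyme of tyrosine breakdown, stood at 18.8 to 26.6 CPM in Ctrl hearts, at 12.6 to 17.9 CPM in 5 Doxo hearts and at 40.1 CPM in Doxo replicate 2. Its log2 difference was -0.20 with all hearts (edgeR adjusted p = 0.838) and -0.54 ± 0.12 without that heart (SE, adjusted p = 0.234). *Thrsp*, a regulator of lipogenesis, went from -0.39 to -0.49. Neither passed the test.

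**Figure D3:**
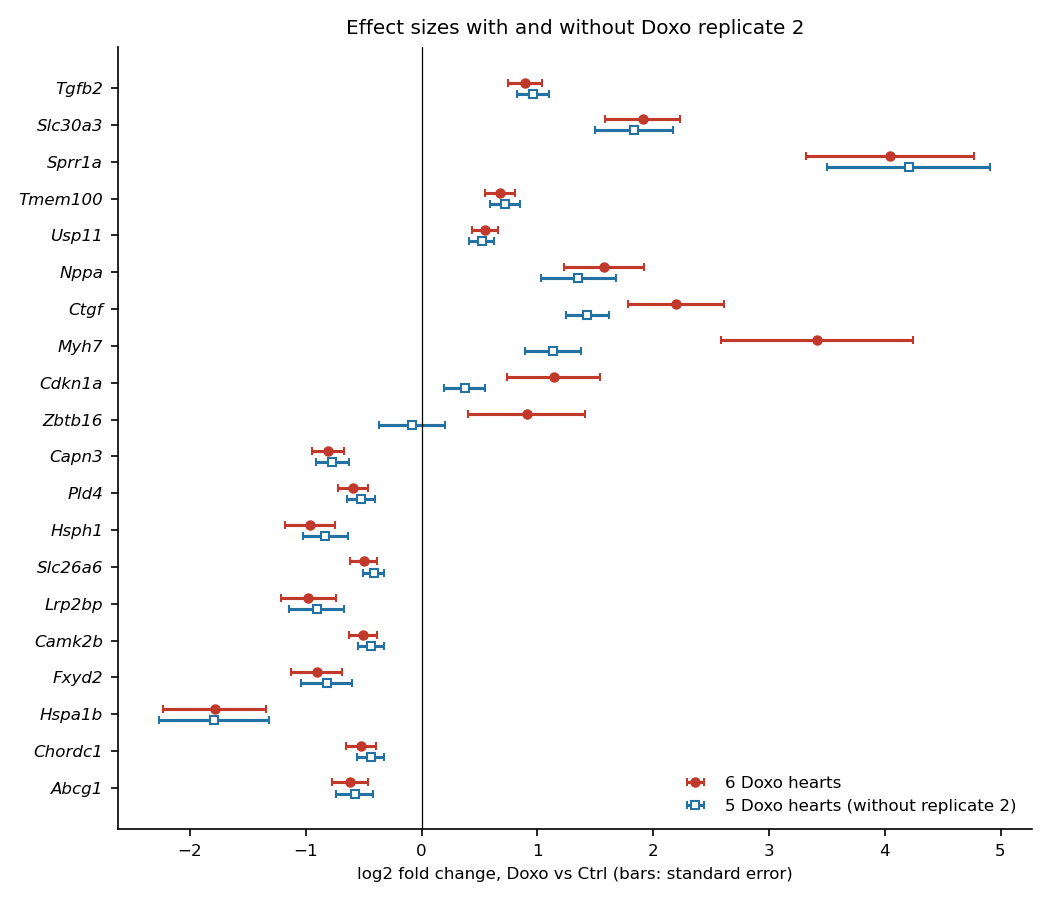
Log2 difference of Doxo from Ctrl with its standard error for the called and the leading protein-coding genes, with all 6 Doxo hearts (filled points) and with the 5 left without replicate 2 (open squares). The estimates for Tgfb2, Capn3 and Hspa1b hardly move, while Myh7 goes from 3.42 to 1.14, Ctgf from 2.20 to 1.43 and Cdkn1a from 1.14 to 0.37.

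Lists of genes were described by the number of tested members at an unadjusted p of 0.05 and by the median log2 difference, which stand beside 4.34% higher, 3.55% lower and a median of 0.00 over all tested genes. With 1 heart left out, 417 to 813 of all tested genes were higher and 344 to 607 lower. The most were higher without Ctrl replicate 1 and the most lower without Ctrl replicate 2. The fewest in both directions came without Doxo replicate 2. Of 19 cardiac stress and hypertrophy genes, 8 were higher and 1 was lower, with a median of 0.34. Without Doxo replicate 2, 5 were higher and 0 lower, with a median of 0.18, and without both Doxo replicate 2 and Ctrl replicate 1, 6 were higher and 0 lower (median 0.17). *Nppa*, *Nppb*, *Myh7* and *Ctgf* belong to this list, as does *Tgfb2*, its 1 member past the adjusted threshold with all hearts. The 1 member lower in the first count was *Acta1*, skeletal α-actin, at 1067, 722, 529, 447 and 648 CPM in Ctrl hearts and 291 to 634 CPM in Doxo hearts, a log2 difference of -0.61. *Acta1* and *Myh7*, both known as genes of the fetal program, differed in sign with all hearts. The list had 0 members lower without Ctrl replicate 1 or 2 or without Doxo replicate 2 or 5. Ctrl replicates 1 and 2, the highest Ctrl hearts for *Acta1*, were also the highest for the skeletal muscle marker *Tnnt3*. The part of skeletal muscle in the value of *Acta1* was not tested.

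Of 19 heat shock chaperones, 0 were higher and 7 lower, with a median of -0.13. Leaving out 1 heart gave 7 or 8 lower in each of the 11 fits, and 7 were lower without both Doxo replicate 2 and Ctrl replicate 1. Over the list the summed level was 5844 to 6798 CPM in Ctrl hearts and 4986 to 6361 CPM in Doxo hearts, and these ranges overlapped.

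For genes of p53 and DNA damage signalling, the counts of higher members at that threshold fell without Doxo replicate 2. Of 39 direct p53 target genes, 4 were higher and 1 lower (median 0.01), and without Doxo replicate 2, 1 was higher and 1 lower. *Cdkn1a*, the cell cycle inhibitor p21, stood at 17.9, 15.4, 17.8, 16.9 and 17.4 CPM in Ctrl hearts, at 15.4 to 29.6 CPM in 5 Doxo hearts and at 117 CPM in Doxo replicate 2. Its log2 difference was 1.14 ± 0.40 with all hearts (SE, edgeR adjusted p = 0.557) and 0.37 ± 0.18 without that heart (adjusted p = 0.98). *Mdm2*, the ubiquitin ligase of p53, had a log2 difference of -0.09 and *Eda2r*, a member of the TNF receptor family, one of -0.18. *Perp*, a membrane protein, had one of 0.46, and *Ddit4l*, an inhibitor of mTORC1, one of -0.69. *Top2b*, the topoisomerase II isoform of the adult heart, stood at 44 to 61 CPM in Ctrl hearts and 47.2 to 55.6 CPM in Doxo hearts, a log2 difference of 0.04.

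Of 19 CDK inhibitors and genes associated with senescence, 3 were higher and 1 lower (median 0.17), and 1 was higher without Doxo replicate 2. *Igfbp3*, a binding protein of insulin-like growth factors, had a log2 difference of 0.82, which was 0.42 without that heart, and *Cdkn1c* one of -0.40. Of 17 BCL2 family genes 3 were higher, and 0 without Doxo replicate 2 or without Ctrl replicate 5. Of 21 topoisomerases and their repair enzymes 1 was higher, and 0 without that heart.

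Mitochondrial genes had small negative medians. Of 31 mitochondrial genes that the study itself singled out, 0 were higher and 3 lower, and all 31 had a negative log2 difference, with a median of -0.17. The study named this list with these samples among its data, so its direction is not independent evidence. The 3 were *Nudt1*, which hydrolyses oxidised nucleotides, at -0.30, *Slc25a39*, a mitochondrial glutathione carrier, at -0.27, and *Mrpl28*, a mitochondrial ribosomal protein, at -0.26. Of 77 mitochondrial ribosomal protein genes 0 were higher and 1 lower (median -0.06), of 80 nuclear genes of the respiratory chain and ATP synthase 1 was higher and 1 lower (median -0.07), and of 11 protein-coding genes of mitochondrial DNA 0 reached it in either direction (median -0.15). These counts moved with single Ctrl hearts. The study's list had 9 members lower without Ctrl replicate 1, 12 without Ctrl replicate 2 and 2 without Ctrl replicate 3 or 4 or Doxo replicate 2, with medians from -0.20 to -0.12. Without Ctrl replicate 2, 10 of the 80 respiratory chain genes, 5 of the 77 mitochondrial ribosomal protein genes and 2 of the 11 genes of mitochondrial DNA were lower. In that fit 607 of all 15112 genes tested were lower. Without Ctrl replicate 1 or 4 or Doxo replicate 2 or 3, 0 of the 80 were. *Tfam*, the mitochondrial transcription factor, had a log2 difference of -0.08.

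Of 20 genes of PML bodies that the study named, likewise with these samples among its data, 1 was higher and 0 lower, with a median of 0.13 that was 0.08 without Doxo replicate 2. *Pml* itself, the scaffold protein of these bodies, had a log2 difference of 0.02.

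Of 25 sarcomere genes 3 were higher and 0 lower (median 0.14), and *Myom2*, an M-band protein, stood at 812 to 1554 CPM in Ctrl hearts and 1652 to 5108 CPM in Doxo hearts. The groups were separate for *Myom2*, and its log2 difference was 0.95 with all hearts and 0.59 without Doxo replicate 2, the heart at 5108 CPM. Of 15 calcium handling genes 0 were higher and 1 lower. That gene was *Ryr2*, the ryanodine receptor of the sarcoplasmic reticulum, with a log2 difference of -0.51 ± 0.19 (SE, unadjusted p = 0.0131, edgeR adjusted p = 0.57) and -0.57 without Doxo replicate 2. Its Ctrl hearts ran from 677 to 1553 CPM, the lowest being replicate 1, and its Doxo hearts from 667 to 993 CPM, so the groups overlapped. Of 29 collagen and matrix genes 2 were higher and 0 lower, with a median of -0.03 that became 0.15 without Doxo replicate 2, and 0 were higher without Ctrl replicate 1.

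Of 23 genes of NAD+ metabolism 2 were higher and 3 lower (median -0.03), and without Doxo replicate 2, 2 were higher and 1 lower. *Nt5e*, the ectoenzyme CD73 that makes adenosine from AMP and splits NMN outside the cell, stood at 8.81, 10.1, 10.3, 9.62 and 9.10 CPM in Ctrl hearts and 12.2 to 23.4 CPM in Doxo hearts (median 14.3). The groups were separate, with a log2 difference of 0.70 ± 0.21 (SE, unadjusted p = 0.0034, edgeR adjusted p = 0.451) and 0.56 without Doxo replicate 2. *Nmrk2*, the muscle nicotinamide riboside kinase, had a log2 difference of 0.38, *Nadk*, which phosphorylates NAD+, one of -0.20, and *Naprt*, which uses nicotinic acid, one of -0.24.

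The remaining pathway lists had few members past that threshold, and many of these small counts rested on single hearts. Of 25 fatty acid and fasting response genes 2 were higher and 2 lower, but 0 were higher without Doxo replicate 2 or 5 or Ctrl replicate 3 or 5, and 7 were lower without Ctrl replicate 1 (median -0.12, against 0.01 with all hearts). Of 27 interferon-stimulated genes 0 were higher and 2 lower with a median of -0.17, and without Ctrl replicate 1, 0 were lower and the median was 0.03. Of 25 proliferation genes 0 were higher and 1 lower, and without Doxo replicate 6, 6 were lower. Of 19 anthracycline transporters and reductases 1 was higher and 3 lower, and without Doxo replicate 2, 0 were higher and 1 lower. Of 17 genes of iron handling and ferroptosis 2 were higher and 1 lower, with 0 to 2 higher and 0 to 3 lower when 1 heart was left out.

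Of 19 circadian clock genes 3 were higher and 0 lower, and 1 was higher without Doxo replicate 2, without Ctrl replicate 1 or without Ctrl replicate 3. Of 20 glucose uptake and glycolysis genes 0 were higher and 1 lower, with 0 to 2 lower when 1 heart was left out. Of 19 NRF2 target genes 1 was higher and 0 lower (0 to 2 higher with 1 heart left out), and of 18 ATF4 stress response genes 0 reached it in either direction. Of 16 muscle atrophy genes 1 was higher and 1 lower, with 0 to 3 higher when 1 heart was left out. The hour at which each heart was taken is not given. *Arntl*, *Dbp* and *Per2*, which peak at different hours, had log2 differences of -0.07, -0.04 and -0.05. Within Ctrl hearts *Arntl* ran from 3.92 to 15.7 CPM and *Per2* from 11.4 to 57.5 CPM. The largest value of the clock list was 0.88, that of *Per1*, which is given below with the glucocorticoid-induced genes.

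**Figure D4:**
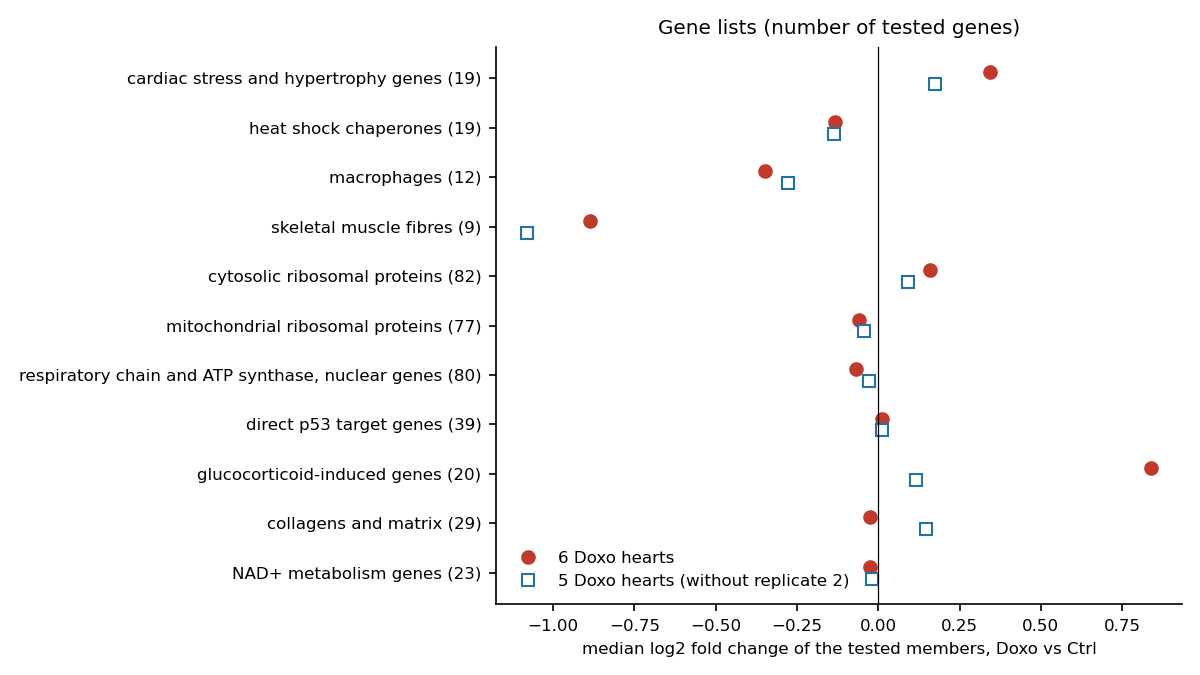
Median log2 difference of Doxo from Ctrl over the tested members of 11 gene lists, with all 6 Doxo hearts (filled points) and without Doxo replicate 2 (open squares), the number of tested members standing in brackets. The median of the glucocorticoid-induced genes goes from 0.84 to 0.12 and that of the cytosolic ribosomal proteins from 0.16 to 0.09 without that heart, while the heat shock chaperones stay at -0.13.

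The largest counts moved strongly with single hearts. Of 20 glucocorticoid-induced genes 9 were higher and 0 lower, with a median of 0.84, and without Doxo replicate 2, 2 were higher and the median was 0.12. *Fkbp5*, a cochaperone of the glucocorticoid receptor, stood at 197 CPM in Doxo replicate 2, which is 11.1-fold above the highest of the other 10 hearts. Its log2 difference was 1.63 with all hearts and 0.06 without it. *Zbtb16*, the transcription factor PLZF, stood at 258 CPM in Doxo replicate 2 and at 25.1 to 46.1 CPM in the other Doxo hearts, and its log2 difference turned from 0.91 to -0.08. *Per1* and *Arrdc2* had log2 differences of 0.88 and 1.55 with all hearts and of 0.59 and 0.54 without it. Of 82 cytosolic ribosomal protein genes 20 were higher and 0 lower (median 0.16), and without Doxo replicate 2, 4 were higher (median 0.09). Without Ctrl replicate 1, 54 of the 82 were higher (median 0.24), where 813 of all 15090 genes tested were. Without both hearts 27 were higher (median 0.17), or 32.9% of the list against 3.78% of all genes. *Rpl3* went from 0.50 to 0.30 and *Rps4x* from 0.29 to 0.24, and both had all Doxo hearts above all Ctrl hearts.

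Doxo replicate 2 also stood apart in transcripts outside these lists, which were looked up after its position had been seen. *Spock2* was 10.1-fold and *Hif3a* 9.77-fold above the highest of the other 10 hearts, *Ptgds*, prostaglandin D2 synthase, 5.97-fold and *Glul*, glutamine synthetase, 4.02-fold. In the other direction *Aplnr*, the apelin receptor of endothelium, stood at 1.26 CPM where the other 5 Doxo hearts held 33.2 to 50.3 CPM. *Col3a1*, a fibrillar collagen, stood at 7.92 CPM where those hearts held 122 to 161 CPM, and *Hba-a1*, an α-globin, at 4.53 CPM where they held 48.4 to 97.7 CPM. Summed markers of red cells and platelets were at 22.1 CPM in that heart and between 143 and 447 CPM in the other 10. Summed neutrophil markers were at 23.3 CPM in it and between 3.14 and 7.23 CPM in the others. Most of that sum was *Lcn2*, at 13.9 CPM in Doxo replicate 2 and 0.934 to 2.83 CPM in the other hearts. Reads on mitochondrial genes made up 15.7% of its library and 20.2% to 28.5% of the others. None of the 9 called genes was lost without it.

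**Figure D5:**
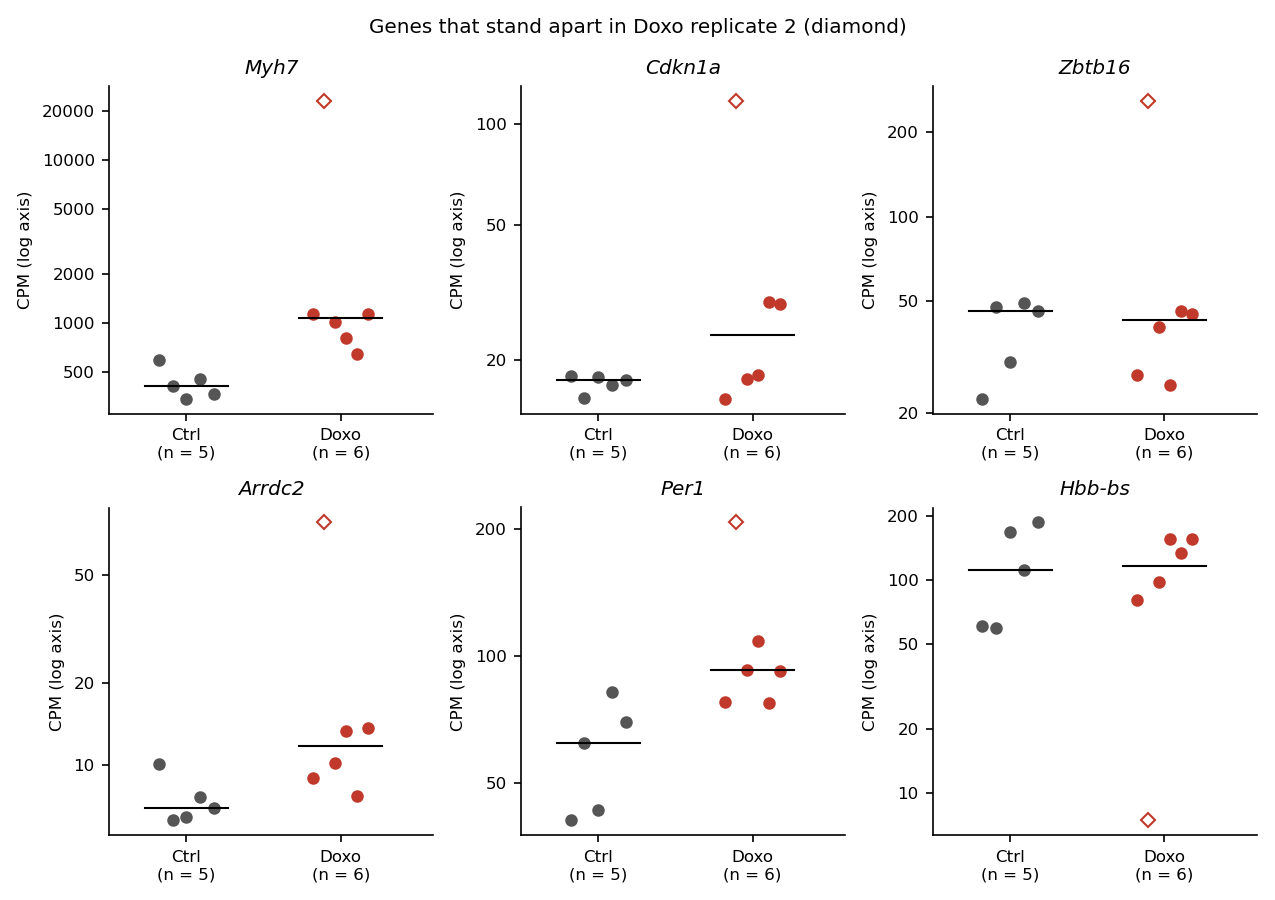
CPM on a log axis of 6 genes in which Doxo replicate 2 (diamond) lies away from the other hearts, 1 point per heart, with lines at the group medians. It stands at 23126 CPM for Myh7, 117 CPM for Cdkn1a and 258 CPM for Zbtb16, above all other hearts, and at 7.46 CPM for Hbb-bs, below all of them.

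Markers of other cell types were counted in the same way. Of 12 macrophage markers, 0 were higher and 6 lower, with a median of -0.35, and the sum was 197 to 258 CPM in Ctrl hearts and 157 to 212 CPM in Doxo hearts. Without Doxo replicate 2, 5 were lower, without Ctrl replicate 2, 4 were, and without both Doxo replicate 2 and Ctrl replicate 1, 3 were. The complement genes *C1qa*, *C1qb* and *C1qc* had log2 differences of -0.40, -0.44 and -0.37. *C1qa* stood at 70.2, 41.6, 40.4, 42.9 and 40.4 CPM in Ctrl hearts and 31.3 to 40.2 CPM in Doxo hearts, so the highest Ctrl heart was again replicate 1. Of 4 tested neutrophil markers 2 were higher, *S100a8* at 1.64 and *S100a9* at 1.65, with the highest level of each in Doxo replicate 2. Reads were few, at 1 to 6 for *S100a8* and 4 to 9 for *S100a9* in Ctrl hearts. Doxo hearts held 7 to 26 and 4 to 56. The median of the 4 markers was 1.29, and 0.52 without Doxo replicate 2, where 2 were still higher. Of 9 markers of B cells and plasma cells 1 was higher (0 in 6 of the 11 fits with 1 heart left out), and of 3 T and NK cell markers 0 reached it in either direction.

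Of 9 skeletal muscle fibre markers, 0 were higher and 6 lower, with a median of -0.89. The sum was 659 to 2377 CPM in Ctrl hearts and 489 to 996 CPM in Doxo hearts. *Tnnt3*, fast skeletal troponin T, stood at 458, 418, 134, 126 and 156 CPM in Ctrl hearts and 86.0 to 176 CPM in Doxo hearts, a log2 difference of -1.10 (edgeR adjusted p = 0.435). The high Ctrl values are those of replicates 1 and 2, and the other 3 Ctrl hearts overlapped the Doxo hearts. *Tnni2* and *Actn3* were likewise highest in those hearts, with log2 differences of -1.0 and -1.05. Without Ctrl replicate 1, 4 were lower with a median of -0.54, and without Ctrl replicate 2, 4 were lower with a median of -0.63. *Capn3*, itself a gene of striated muscle, stood at 6.69 and 8.27 CPM in Ctrl replicates 1 and 2, the second being the highest of the Ctrl hearts, and at 6.22 to 7.97 CPM in the other 3. The part of skeletal muscle in the call of *Capn3* was not tested.

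Of 10 cardiomyocyte markers 0 were higher and 1 lower, which was *Ryr2*, and 0 were lower without Ctrl replicate 2. Of 8 tested markers of atrial cardiomyocytes 2 were higher and 1 lower, and *Nppa* is among the first. Levels of atrial markers differed between hearts, and the amount of atrial tissue was not measured. *Myl4*, an atrial light chain, stood at 7.18 CPM in Ctrl replicate 5 and 1.64 to 2.39 CPM in the other Ctrl hearts, against 1.43 to 2.45 CPM in Doxo hearts. The atrial genes *Myl7* and *Sln* were likewise highest in Ctrl replicate 5, at 4.41 and 2.21 CPM, where *Nppa* was 81.4 CPM. A further atrial marker below the filter, *Bmp10*, was at 0.226 CPM in that heart and at 0 to 0.413 CPM in Doxo hearts. Of 10 endothelial and 10 fibroblast markers, and of 9 markers of smooth muscle cells and pericytes, 0 reached it in either direction, with medians of -0.17, 0.01 and -0.08, and without Ctrl replicate 2, 2 of the endothelial markers were lower. Of 10 markers of red cells and platelets 0 reached it, and *Hbb-bs* had a log2 difference of -0.16.

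Of 5 tested white adipocyte markers 2 were lower (median -0.63), but 0 were without Ctrl replicate 1 or without Ctrl replicate 2, and *Adipoq*, their defining gene, was below the filter at 0 to 0.489 CPM. Of 4 brown adipocyte markers 1 was higher, and 0 without Doxo replicate 2 or without Ctrl replicate 2. Of 8 markers of Schwann cells and neurons 1 was higher, *Ncam1*, a cell adhesion molecule, at 1.19 with all hearts and 0.90 without Doxo replicate 2, with all 6 Doxo hearts above the Ctrl hearts. Of 8 mesothelial markers 1 was lower, and 0 in 6 of the 11 fits with 1 heart left out. Of 3 tested liver markers 2 were higher, at a summed level of 1.45 to 3.05 CPM in Ctrl hearts and 2.16 to 8.69 CPM in Doxo hearts, and without Doxo replicate 2, 0 were. Of 1 lung epithelial and 2 thymocyte markers 0 reached it. The part of these other cells in the results above was not tested.

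The acute experiment of the series gave its own contrast, with 13 Doxo hearts taken 5 days after a single injection of 20 mg/kg and 14 Ctrl hearts. Regimen, time after injection, mouse age, laboratory, sequencing site and mouse supply change together between the experiments and cannot be told apart. The acute mice were purchased at a younger age than the chronic mice. The test of the difference between the 2 Doxo effects passed for 2778 of 14965 genes (18.6%), 1525 in the direction of a higher acute effect (10.2%) and 1253 in the other (8.37%). *Tgfb2* had a log2 difference of 0.62 after the acute regimen and 0.89 after the chronic one, and the difference between them was not past the threshold (edgeR adjusted p = 0.502). *Capn3* had one of -1.24 after the acute regimen (adjusted p of the difference = 0.305), *Sprr1a* one of 2.71 (adjusted p = 0.368) and *Ctgf* one of 2.30 (adjusted p = 0.939). *Tmem100* had one of -0.12, against 0.68 after the chronic regimen (adjusted p = 0.0753). A p that misses the threshold does not show that these effects are alike, and the standard error of the difference was 0.28 for *Tgfb2*, 0.30 for *Capn3*, 1.07 for *Sprr1a* and 0.67 for *Ctgf*.

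Differences between the regimens did pass for *Nppa*, with an acute minus chronic log2 difference of -3.44 ± 1.17 (SE, edgeR adjusted p = 0.0371), and for *Nt5e* at -0.77 (adjusted p = 0.00716). They passed in the other direction for *Eda2r* at 1.03 (adjusted p = 0.0195), *Nmrk2* at 1.55 (adjusted p = 0.0146) and *Fah* at 1.55 (adjusted p = 0.00536). For *Cdkn1a* the difference was 0.39 and did not pass with all hearts (adjusted p = 0.537), and without Doxo replicate 2 it did (adjusted p = 0.00822). *Myh7* behaved in the same way, with a difference of 1.04 (adjusted p = 0.328) that passed without that heart (adjusted p = 1.11e-04).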

How the data were processed

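The authors deposited tables of read counts per gene, 1 column per heart, made from poly(A)-selected single-end libraries. The submitters' processing notes name STAR 2.7.3a, featureCounts 2.0.0 and mm10, and the annotation version and strand setting are not given in the sources used here. Counts were used as deposited. Groups came from the sample labels. The 17 hearts of the 3 chronic groups were fitted together in edgeR 4.0.16 (R 4.3.3) after filterByExpr and TMM scaling, and Doxo was compared with Ctrl by the quasi-likelihood test with Benjamini-Hochberg adjustment over 14960 genes. CPM are TMM-scaled. The standard error was taken from the fold change and its F statistic. Regimens were compared by an interaction term over 38 chronic and acute hearts, on the genes that both tables list. No 2 libraries agreed within sampling noise. The labels name hearts by number and say nothing of cages or days, so the p-values measure the spread between these mice.

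Of 54658 gene symbols in the chronic table, 54000 matched once in GENCODE vM21 (GRCm38), which gave positions and transcripts. *Ctgf* was placed through a RefSeq synonym. Named genes were every called gene with or without Doxo replicate 2, the 10 protein-coding genes with the smallest p in each direction (6 without that heart), up to 3 members per list and direction, and a set of well-known genes. Genes looked up outside this rule are marked so. The genes and the 45 lists were chosen with earlier results of these data known. Scripts were tested on simulated counts. Alternatives changed the scaling, filter, tool, samples and block, and left out each heart in turn.

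The result of 1 named gene is not reported here.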

Additional observations from a re-analysis of the deposited data

Results flagged for a closer look

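Among 134 groups of 5 or 6 hearts examined for a heart far from the rest, 26 held one. The groups are the Ctrl and the Doxo hearts of 67 genes named in the text. Many of these genes were chosen by their values in these hearts, so the count cannot be set against a rate expected by chance. Of these 26, 15 were Doxo replicate 2 and 9 were Ctrl replicate 1. In CPM, Doxo replicate 2 stood above the other Doxo hearts for *Myh7* (23126), *Myom2* (5108), *Ctgf* (516), *Rpl3* (343), *Zbtb16* (258), *Per1* (207), *Cdkn1a* (117), *Arrdc2* (78.0), *Igfbp3* (71.7), *Fah* (40.1), *Ncam1* (9.41), *S100a9* (3.21) and *S100a8* (1.49), and below them for *Mrpl28* (70.7) and *Mdm2* (43.6). Ctrl replicate 1 stood above the other Ctrl hearts for *Nppa* (201), *C1qa* (70.2), *C1qc* (54.8), *Cdkn1c* (34.8), *Igfbp3* (23.8), *Pml* (16.6), *Tgfb2* (13.8) and *Pld4* (12), and below them for *Perp* (79.5). Ctrl replicate 5 was high for the atrial gene *Myl4* (7.18), and Doxo replicate 5 was low for *Gm21738* (2.02, the other Doxo hearts at 2.7 to 3.1).

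The effect of doxorubicin differed between the acute and the chronic regimen for 10 of the 62 genes named in the text that could be tested, or 16.1%, a share no higher than the 18.6% over all genes tested (edgeR interaction term, adjusted over all genes). The acute minus chronic log2 difference was 2.10 for *Per1* (adjusted p = 0.00424), 1.99 for *Per2* (0.00291), 1.55 for *Nmrk2* (0.0146), 1.55 for *Fah* (0.00536), 1.52 for *Tnnt3* (0.0125) and 1.03 for *Eda2r* (0.0195). It was -0.77 for *Nt5e* (0.00716), -1.71 for *Acta1* (0.0335), -3.44 for *Nppa* (0.0371) and -5.68 for *Hbb-bs* (0.0126). The regimens also differ in time point, mouse age, laboratory, sequencing site and mouse supply, which cannot be told apart.

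The satellite models, summed, had a mean of 21.7 CPM in the Doxo-NMN hearts (13.3 to 35.4 CPM), above the highest Ctrl heart at 3.59 CPM. The comparison of Doxo with Ctrl uses the Doxo-NMN hearts only for the filter, the scaling and the spread.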

How the results depend on the processing

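The number of genes called was 9 with RLE size factors, with the legacy settings and with a robust dispersion. It was 15 without the low-count filter, 24 with DESeq2, 54 with limma voom and sample weights, and 0 of 12871 genes when every heart had to hold 10 counts, a filter that removed the satellite models, *Slc30a3* and *Sprr1a* (edgeR, 1002 genes at an unadjusted p of 0.05). All 9 genes were among those called in each of the first 6 of these fits. The fit without the low-count filter gained *Ctgf*, *Hspa1b*, *Hsph1*, *Myh7*, *Nppa* and *Tmem100*. DESeq2 gained 15 genes, among them *Ctgf*, *Hsph1*, *Ncam1*, *Nppa*, *Pld4*, *Slc26a6*, *Tmem100* and *Usp11*. With only Ctrl and Doxo hearts in the fit 6 genes were called, without *Tgfb2*, *Capn3* and *Sprr1a*. Leaving out 1 heart gave 5 to 11, with 5 without Ctrl replicate 2, 3 or 5, where the satellite models alone were called. Without both Doxo replicate 2 and Ctrl replicate 1, chosen after the data had been seen, 13 were called. The satellite models passed in all alternatives but the filter of 10 counts. *Tgfb2*, *Slc30a3*, *Capn3* and *Sprr1a* each lost the call in at least 4 of the 11 fits with 1 heart left out. Few reads in Ctrl hearts limit the precision of the satellite models, *Slc30a3* and *Sprr1a*, which the low-count filter kept through the dosed hearts.

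Hearts of different groups share replicate numbers. Ctrl and Doxo hearts with the same replicate number did not deviate together (correlations of -0.25, 0.04, 0.03, -0.08 and -0.11), so replicate numbers were not read as pairs. Between these groups only replicates 1 and 3 also share the heart number of the labels (17 and 22). The correlations and the replicate block therefore do not test pairing by heart number. With the replicate block 6 genes were called, and 8 with the block and without Doxo replicate 2, in both cases without *Tgfb2*, *Capn3* and *Slc30a3*. For the difference between the regimens the block gave 1164 genes, where the fit without it gave 2778, and leaving out 1 heart gave 1975 to 3835.

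Of 1528 values of 67 named genes under the alternatives, 1419 kept direction and side of the threshold, 32 lost the call, 40 gained it and 37 changed sign, the last in 11 genes that were not called. Without Doxo replicate 2 and with the block, the log2 difference was 0.0039 for *Mdm2*, 0.061 for *Myh6*, 0.0018 for *Tfam*, -0.23 for *Zbtb16*, 0.12 for *Hbb-bs* and 0.086 for *Dbp*. Without that heart and with only Ctrl and Doxo hearts it was 0.019 for *Myh6*, -0.087 for *Zbtb16*, 0.091 for *Hbb-bs* and 0.13 for *Dbp*. With limma voom it was 0.16 for *Eda2r*, 0.44 for *Per2* and 0.14 for *Dbp*, and with the block 0.068 for *Per2*. Over the fits that leave out 1 heart, or Doxo replicate 2 with Ctrl replicate 1, it ran from -0.27 to 0.13 for *Eda2r*, from -0.16 to 0.020 for *Myh6*, from -0.024 to 0.18 for *Pml*, from -0.23 to 1.09 for *Zbtb16*, from -0.27 to 0.27 for *Per2*, from -0.0077 to 0.12 for *Top2b*, from -0.32 to 0.092 for *Hbb-bs*, from -0.26 to 0.31 for *Arntl* and from -0.25 to 0.16 for *Dbp*. The cause was not tested. Of 1030 list medians, 997 moved by less than the spread and 33 by more.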
